A study of Mus musculus with 12 samples.

Results

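The transcripts described are those of 8 genes of the type 17 programme of T cells, Rora, Ahr, Maf, Il17a, Il17f, Il22, Il23r and Ccr6, found by their symbols among the 25078 genes of the count table. They were measured by RNA-Seq in donor T cells from the liver, 6 days after allogeneic hematopoietic cell transplantation (HCT). All groups shared WT BALB/c recipients, lethally irradiated, and T cell–depleted bone marrow of WT C57BL/6 mice. The recipients also received CD90.2+ T cells from C57BL/6 donors of 3 genotypes. WT donors carried neither deletion, STAT3ko donors carried Stat3 fl/fl with CD4-Cre, and STAT3ko PD-1ko donors carried Stat3 fl/fl with CD4-Cre and a germline deletion of PD-1. Donor cells were sorted as H-2Kb+TCRβ+ cells that were CD4+ or CD8+, which gave 6 groups of 2 libraries each and 12 libraries in all. Each library pooled lymphocytes of 3 recipients, so a p-value here measures the spread between pools. CD4-Cre acts in thymocytes that bear both CD4 and CD8, and the deletion is therefore carried by both subsets. No group lacked PD-1 alone, and the age of the animals is not given in the sources used here.

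As background, type 17 T cells arise when IL-6, IL-21 or IL-23 activates STAT3, which together with TGF-β signals induces ROR nuclear receptors. RORα (encoded by Rora) is among them and is not the only such receptor. RORα binds the Il17a and Il17f locus, while AHR, a ligand-activated transcription factor, and c-MAF, a leucine zipper factor, tune which cytokines the cells make. IL-17A and IL-17F recruit neutrophils, IL-22 acts on epithelium and hepatocytes, IL-23R sustains the cells once they are formed, and CCR6 guides them toward CCL20. PD-1 is an inhibitory receptor of activated T cells, and STAT3 in donor T cells was deleted in these mice to study graft-versus-host disease.

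The promoter windows of 4 members, 250 bases before to 50 after the RefSeq start site in build GRCm38.p6, are shown because Rora encodes a receptor that reads such windows and because Il17a, Il17f and Il23r are genes that type 17 cells are known for. Capitals mark the ROR half-site AGGTCA (its reverse complement reads TGACCT) and the AHR core GCGTG (reverse complement CACGC), searched on both strands.
Rora, chr9:68653536-68653835, + strand: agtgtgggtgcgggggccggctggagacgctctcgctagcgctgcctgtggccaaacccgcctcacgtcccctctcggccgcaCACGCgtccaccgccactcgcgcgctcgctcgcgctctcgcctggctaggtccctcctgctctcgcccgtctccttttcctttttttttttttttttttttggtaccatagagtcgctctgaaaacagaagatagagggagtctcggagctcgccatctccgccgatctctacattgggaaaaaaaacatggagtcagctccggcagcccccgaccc
Il17a, chr1:20730655-20730954, + strand: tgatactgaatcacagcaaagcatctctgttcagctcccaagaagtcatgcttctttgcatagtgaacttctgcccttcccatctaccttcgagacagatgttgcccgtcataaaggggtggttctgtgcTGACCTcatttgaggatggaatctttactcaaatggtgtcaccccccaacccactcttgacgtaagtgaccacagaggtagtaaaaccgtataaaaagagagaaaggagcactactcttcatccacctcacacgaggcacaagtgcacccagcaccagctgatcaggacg
Il17f, chr1:20784221-20784520, - strand: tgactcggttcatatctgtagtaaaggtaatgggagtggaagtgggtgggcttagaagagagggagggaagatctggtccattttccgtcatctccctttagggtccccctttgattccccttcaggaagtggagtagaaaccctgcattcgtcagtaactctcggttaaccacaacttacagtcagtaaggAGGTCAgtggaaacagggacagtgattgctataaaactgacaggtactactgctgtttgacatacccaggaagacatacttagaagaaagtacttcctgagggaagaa
Il23r, chr6:67491806-67492105, - strand: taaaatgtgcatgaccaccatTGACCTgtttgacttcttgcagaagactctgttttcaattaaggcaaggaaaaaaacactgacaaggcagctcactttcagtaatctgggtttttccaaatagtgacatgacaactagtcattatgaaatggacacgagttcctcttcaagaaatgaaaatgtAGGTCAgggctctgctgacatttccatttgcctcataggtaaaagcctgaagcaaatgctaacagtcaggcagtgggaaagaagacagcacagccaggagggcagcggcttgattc
The half-site stood once in the Il17a window, once in the Il17f window and 2 times in the Il23r window. It was absent from the windows of Rora and Il22 and present in 1 of the 2 windows of Ccr6. Among all 32841 promoter windows of that length, 16.3% held it. The AHR core was found in the Rora window alone among the 7 windows, against 32.4% of all windows, and the STAT motif TTCNNNGAA only in 1 window of Ccr6, against 8.30%. Of the 8 members, 6 had a window in the table, and Ahr and Maf had none. A letter match describes these windows and says nothing of binding. In GRCm38 the genes lie at chr9:68653786-69388246 (Rora), chr12:35497979-35534989 (Ahr), chr8:115703253-115706894 (Maf), chr1:20730905-20734496 (Il17a), chr1:20777146-20784270 (Il17f), chr10:118204964-118210046 (Il22), chr6:67422932-67491855 (Il23r) and chr17:8236043-8257129 (Ccr6).

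The libraries held 21676100 to 24551500 counts each, so that 1 count was worth 0.0397 to 0.0471 CPM (counts per 1000000 counts, scaled by the TMM factors). The targeted genes followed the labels. Stat3 was at 368 and 467 CPM in WT CD4+ cells, 140 and 164 in STAT3ko cells and 157 and 219 in STAT3ko PD-1ko cells. In CD8+ cells it was at 397 and 384, then 149 and 135, then 154 and 235. No STAT3ko or STAT3ko PD-1ko library overlapped WT in either subset, and Stat3 counts, which can include exons outside the deleted part, were not at 0. The edgeR adjusted p against WT was 0.0550 (0.00197 with the replicate block) and 0.108 for the STAT3ko cells of the CD4+ and CD8+ subsets, and 0.0180 and 0.0177 for the STAT3ko PD-1ko cells. In CD4+ STAT3ko PD-1ko cells that call was lost without STAT3ko PD-1ko replicate 1 or 2 or WT replicate 2 (adjusted p = 0.112, 0.0750 and 0.0687), with log2 fold changes of −0.90, −1.40 and −0.95. Pdcd1, which encodes PD-1, was at 235 to 454 CPM in the WT and STAT3ko libraries of both subsets. In the STAT3ko PD-1ko libraries it was at 26.0 to 93.5 CPM and thus not at 0, and the source of these reads was not tested. Cd4 reached 1241 to 1887 CPM in CD4+ libraries against 0.356 to 2.73 in CD8+ libraries, and Cd8a was at 0.424 to 5.64 against 589 to 1339.

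On a scale per length of exon, the members separated into an abundant and a scarce tier in every group. In WT CD4+ cells Maf led with 109 CPM per kb, followed by Ahr with 29.8 and Rora with 23.5. Il17a stood at 1.64 CPM per kb, Ccr6 at 0.648, Il22 at 0.462, Il23r at 0.435 and Il17f at 0.167. Ahr and Rora nearly met there, at 33.3 and 26.4 CPM per kb for Ahr and 26.3 and 20.7 for Rora. The libraries of Il22 lay within the range of Il23r, and those of Ccr6 and Il23r overlapped. In WT CD8+ cells the order at the top was Rora, Maf and Ahr, with 15.9, 13.0 and 8.74 CPM per kb. The raw counts set how far the scarce genes can be read. Il17f never exceeded 9 counts in a library and its highest group mean was 6.5 counts, which made it the only member below a mean of 10 counts in all 6 groups. Il22 was below that mean in 5 groups, Il17a and Il23r in 4 and Ccr6 in 2, and Il22 was at 0 in 7 of the 12 libraries.

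**Figure D1:**
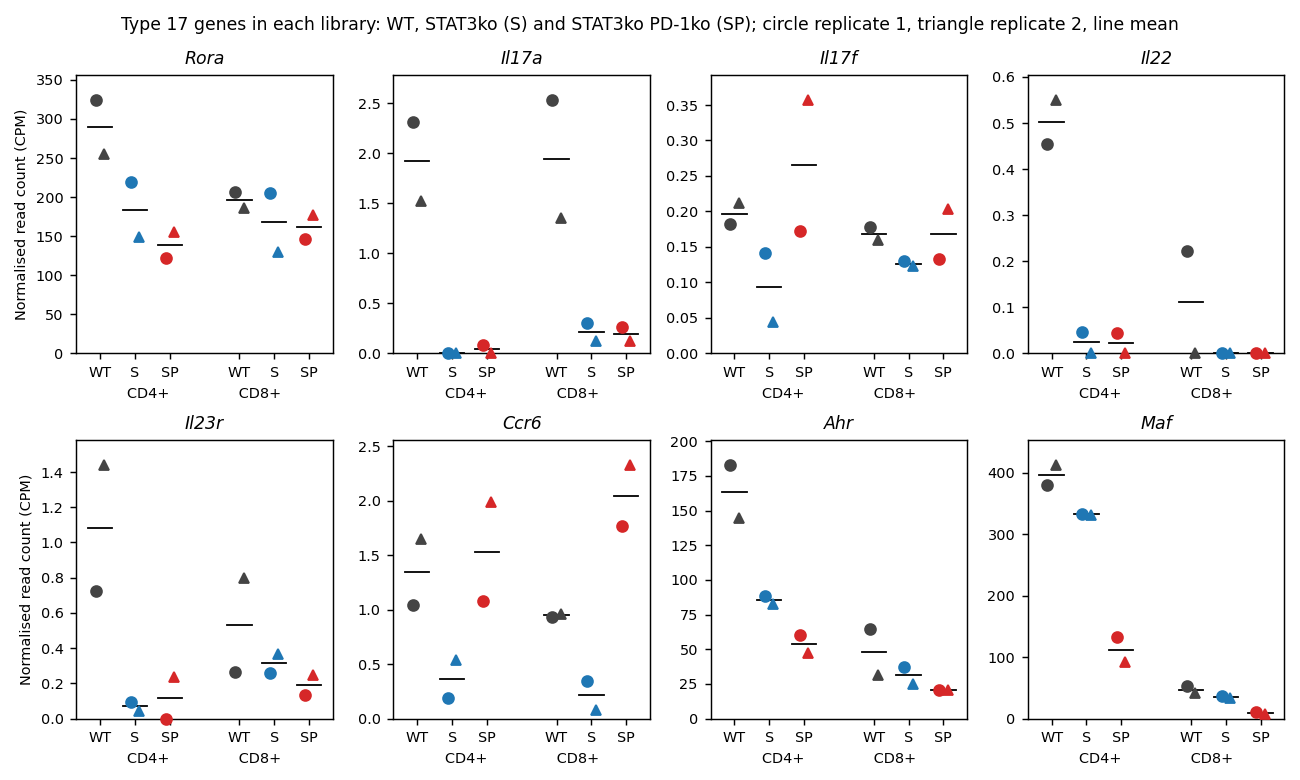
Normalised read counts (CPM, linear axes from 0) of the 8 genes in each of the 12 libraries, with a circle for replicate 1, a triangle for replicate 2 and a line at the mean of the 2. Rora, Ahr and Maf reach at least 8.16 CPM in every library while the other 5 genes stay under 3 CPM, and Il17a is near 0 in all CD4+ libraries that lack STAT3.

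After a filter on low counts, 6 members could be tested in CD4+ cells, all except Il17f and Il22, and 5 in CD8+ cells, where Il23r was also too scarce. Il17a in both subsets and Il23r in CD4+ cells passed the filter through the WT libraries alone, and a member kept that way had to differ, so their calls count for little as a tally. At an adjusted p under 0.05 in the quasi-likelihood fit of edgeR, 0 of the 6 members passed in CD4+ STAT3ko against WT cells, where 0.334% of all genes did. The unadjusted p was under 0.05 for 5 of the 6 (background 10.5%), and DESeq2 called 2, Il17a and Ahr (background 2.27%). In CD4+ STAT3ko PD-1ko against WT cells 4 of 6 were lower, beside 5.65% of all genes lower, 7.21% higher and 12.9% called in either direction. Against STAT3ko cells, 1 of the 6 was lower in the STAT3ko PD-1ko cells (background 5.03% lower, 6.05% higher, 11.1% in all). In these last comparisons the unadjusted p was under 0.05 for 5 and 3 of the 6 (background 28.7% and 29.4%). DESeq2 called 4 and 3, the latter Maf and Ahr lower and Ccr6 higher (background 18.1% and 17.9%). With the replicate number as a block, since same-numbered CD4+ libraries deviated together, 2, 5 and 3 of the 6 passed in the 3 CD4+ comparisons, beside 2.53%, 26.0% and 26.0% of all genes. In CD8+ cells the counts were 0 of 5 for STAT3ko against WT (background 0.0583%), 3 of 5 lower for STAT3ko PD-1ko against WT (8.21% lower, 9.01% higher, 17.2% in all), and 1 higher and 1 lower for STAT3ko PD-1ko against STAT3ko (8.76% higher, 8.05% lower, 16.8% in all). For the CD8+ count of 0, the unadjusted p was under 0.05 for 3 of the 5 (background 1315 of 12002 genes) and DESeq2 called 1, Il17a (background 1.97%). For the STAT3ko PD-1ko CD8+ cells against WT and against STAT3ko, 4 and 2 of the 5 had an unadjusted p under 0.05 (background 34.0% and 34.4%), and DESeq2 called 3 and 2 (background 22.7% and 23.9%). Both comparisons with WT used the same WT libraries in each subset and are not independent. The members were chosen with earlier results of these data known, so their counts beside the background are no independent test. Fewer cells that express a gene and less RNA per cell cannot be told apart in these pools.

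Rora, the gene of the nuclear receptor RORα, was at 324 and 256 CPM in WT CD4+ cells, 219 and 149 in STAT3ko cells and 122 and 156 in STAT3ko PD-1ko cells. Both WT libraries lay above all 4 libraries that lacked STAT3, and the ranges of those 4 overlapped. Rora was 2.06-fold lower in STAT3ko PD-1ko than in WT CD4+ cells (log2 fold change −1.04 ± 0.23 SE, edgeR adjusted p = 0.0278). Without STAT3ko PD-1ko replicate 1 or 2 the adjusted p became 0.173 or 0.118, and without WT replicate 1 it was 0.0943, with the direction kept. In STAT3ko against WT cells the log2 fold change was −0.65 ± 0.23 (adjusted p = 0.359), and between the STAT3ko PD-1ko and STAT3ko cells it was −0.39 ± 0.23 (adjusted p = 0.304). Without 1 library these ranged from −0.95 to −0.41 and from −0.63 to −0.09.

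In CD8+ cells Rora stood at 206 and 186 CPM in WT, 205 and 130 in STAT3ko and 147 and 176 in STAT3ko PD-1ko libraries. Neither the log2 fold change for STAT3ko against WT, −0.23 ± 0.21, nor that for STAT3ko PD-1ko against WT, −0.27 ± 0.21, passed the test (edgeR adjusted p = 0.751 and 0.421). The WT libraries stood above both STAT3ko PD-1ko libraries and overlapped the STAT3ko libraries. No other gene with counts overlapped Rora in the annotation, since the 2 genes listed within it held 0 to 1 count in each library.

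Ahr, which encodes the aryl hydrocarbon receptor, stepped down across the genotypes in CD4+ cells. It was at 183 and 145 CPM in WT, 88.4 and 82.7 in STAT3ko and 60.4 and 47.0 in STAT3ko PD-1ko cells, and the 3 groups did not overlap. The STAT3ko PD-1ko level was below WT (log2 fold change −1.59 ± 0.18, edgeR adjusted p = 0.00446), and without STAT3ko PD-1ko replicate 2 the adjusted p was 0.0623. The difference between STAT3ko and WT, −0.93 ± 0.18, had an adjusted p of 0.119, and that between STAT3ko PD-1ko and STAT3ko, −0.65 ± 0.18, one of 0.0589. With the replicate block these became 0.0135 and 0.00840.

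In CD8+ cells Ahr was lower throughout, at 64.4 and 31.7 CPM in WT, 37.1 and 25.1 in STAT3ko and 20.5 and 20.3 in STAT3ko PD-1ko cells. WT and STAT3ko libraries overlapped, and the STAT3ko PD-1ko libraries lay below all others. The fall from WT to STAT3ko PD-1ko was 2.33-fold (log2 fold change −1.22 ± 0.33, edgeR adjusted p = 0.0437). Without STAT3ko PD-1ko replicate 1 or 2 the log2 fold change was −1.24 or −1.23, with an adjusted p of 0.172 or 0.204 from fewer libraries. Without WT replicate 1, the higher of the WT pair, it was −0.64 with an adjusted p of 0.137. It was 0.0880 by limma on log2(RPKM + 1).

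Maf, which encodes the transcription factor c-MAF, was per length of exon the most abundant member in every CD4+ group. Only Maf was lower in STAT3ko PD-1ko than in STAT3ko cells by the test in both subsets. It was at 381 and 413 CPM in WT, 333 and 332 in STAT3ko and 132 and 91.8 in STAT3ko PD-1ko CD4+ cells. In CD8+ cells the values were 53.1 and 41.2, then 36.1 and 33.0, then 10.9 and 8.16 CPM. In each subset the STAT3ko PD-1ko libraries lay well below the other 4, and the STAT3ko libraries just under WT.

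The fall of Maf from WT to STAT3ko PD-1ko was 3.49-fold in CD4+ cells (log2 fold change −1.80 ± 0.19, edgeR adjusted p = 0.00395) and 4.92-fold in CD8+ cells (−2.30 ± 0.19, adjusted p = 0.00226). Both held in each fit that left out 1 library, with an adjusted p of at most 0.0477 and 0.0389. Against STAT3ko cells, Maf was 2.93-fold lower in STAT3ko PD-1ko CD4+ cells (−1.55 ± 0.19, adjusted p = 0.00786) and 3.61-fold lower in CD8+ cells (−1.85 ± 0.19, adjusted p = 0.00375). Without STAT3ko PD-1ko replicate 2 of that subset those p-values were 0.0860 and 0.0586. For STAT3ko against WT the log2 fold changes were −0.25 ± 0.19 and −0.45 ± 0.18, with adjusted p of 0.738 and 0.430.

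Il17a, the signature cytokine gene of these cells, was scarce but present in WT cells, with 51 and 36 counts in CD4+ and 57 and 34 in CD8+ libraries. In CD4+ cells it had 0 and 0 counts in STAT3ko and 2 and 0 in STAT3ko PD-1ko libraries. CD8+ cells kept 7 and 3 counts in STAT3ko and 6 and 3 in STAT3ko PD-1ko libraries. Every library that lacked STAT3 thus lay below every WT library of its subset.

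Il17a passed the filter in both subsets through the WT libraries alone and so had to differ from WT. Its calls against WT therefore count for little as tests. With a floor of 3 counts per library, Il17a was at least 14.0-fold lower in STAT3ko than in WT CD4+ cells. The edgeR adjusted p was 0.0572, and it was 0.0147 with the replicate block. In STAT3ko PD-1ko CD4+ cells the 2 counts were 2.17% of the WT level (95% exact interval 0.259% to 8.08%, for counting error only). The fitted log2 fold change was −5.33 (edgeR adjusted p = 0.0112). Both counts were in replicate 1. The call was lost without STAT3ko PD-1ko replicate 1, where that group held 0 counts. It was also lost without STAT3ko PD-1ko replicate 2, with a log2 fold change of −4.37. In CD8+ cells the log2 fold change was −3.17 ± 0.60 for STAT3ko against WT (adjusted p = 0.208) and −3.29 ± 0.61 for STAT3ko PD-1ko against WT (adjusted p = 0.0152). The former was 0.0236 by DESeq2 and 0.0310 with all genes of at least 1 count, and its log2 fold change was −3.92 and −2.67 without STAT3ko replicate 1 and 2 and −2.67 without WT replicate 1. The latter was lost without STAT3ko PD-1ko replicate 1 or 2 or WT replicate 1, with log2 fold changes of −3.93, −2.85 and −2.79 and an adjusted p of 0.0634, 0.113 and 0.0530. Il17a did not separate the 2 deleted groups in CD8+ cells (log2 fold change −0.12 ± 0.77, adjusted p = 0.929).

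Il17f, the neighbour and relative of Il17a, showed no such pattern at its depth. It had 4 and 5 counts in WT, 3 and 1 in STAT3ko and 4 and 9 in STAT3ko PD-1ko CD4+ libraries, and 4 and 4, 3 and 3, and 3 and 5 in the CD8+ libraries. With 1 to 9 counts a library, a difference was not detectable at this depth, and no test was run on it.

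Il22, whose product acts on hepatocytes and epithelium, had 10 and 13 counts in WT CD4+ libraries. STAT3ko and STAT3ko PD-1ko CD4+ libraries had 1 and 0 counts each. The deleted groups were at 4.54% (95% exact interval 0.1101% to 27.9%) and 4.11% (0.0997% to 25.3%) of the WT level by counting error. In CD8+ cells 1 WT library had 5 counts and the other 5 libraries had 0, so nothing can be read there. Reads of Il22 and of its near copy Iltifb may be assigned to either gene, which was not tested, so both values are uncertain. Iltifb had 5 counts in the same WT CD8+ library and at most 1 count elsewhere.

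Il23r, which encodes the specific subunit of the IL-23 receptor, had 16 and 34 counts in WT CD4+ libraries, 2 and 1 in STAT3ko and 0 and 6 in STAT3ko PD-1ko libraries. Both deleted groups lay below WT. Il23r passed the CD4+ filter through the WT libraries alone and so had to differ from WT. The fits in which it passed therefore count for little as support. The 3 counts of the STAT3ko group were 6.26% of the WT level (95% exact interval 1.25% to 19.4%), with an edgeR adjusted p of 0.214. For STAT3ko PD-1ko against WT the log2 fold change was −3.07 ± 0.88 with an adjusted p of 0.0610, which was 0.0167 with the replicate block. It also passed in 1 fit of all 12 libraries (0.0312), with all genes of at least 1 count (0.0295), with only the 4 libraries compared (0.0325) and by limma on log2(RPKM + 1) (0.0449), and not by DESeq2 (0.0685). The call also varied with the library left out. The log2 fold change was −2.14 (adjusted p = 0.191) without STAT3ko PD-1ko replicate 1 and −2.49 (0.227) without WT replicate 2. Without WT replicate 1 it was −3.48 (0.0664), and without STAT3ko replicate 1 or 2 it was −3.07 in both fits (0.0382 and 0.0383). Without STAT3ko PD-1ko replicate 2 that group held 0 counts and the adjusted p was 0.0903. In CD8+ cells the counts were 6 and 20 in WT, 6 and 9 in STAT3ko and 3 and 6 in STAT3ko PD-1ko libraries, and the groups overlapped or touched.

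Ccr6, the chemokine receptor gene of the programme, was the only member that edgeR called higher in STAT3ko PD-1ko than in STAT3ko cells, a call made in CD8+ cells. CD8+ libraries had 21 and 24 counts in WT, 8 and 2 in STAT3ko and 40 and 57 in STAT3ko PD-1ko cells, and the 3 groups did not overlap. CD4+ libraries had 23 and 39, 4 and 12, and 25 and 50 counts, where WT and STAT3ko PD-1ko libraries overlapped and STAT3ko libraries lay below both.

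Between STAT3ko PD-1ko and STAT3ko CD8+ cells Ccr6 differed by a log2 fold change of 3.26 ± 0.56 (edgeR adjusted p = 0.0136). Without STAT3ko PD-1ko replicate 2 or STAT3ko replicate 2 the adjusted p was 0.1096 or 0.0531, with log2 fold changes of 3.03 and 2.57, and without STAT3ko replicate 1 the log2 fold change was 4.56 (adjusted p = 0.0109). The same contrast in CD4+ cells was 2.08 ± 0.59 with an adjusted p of 0.0627, and 0.00961 with the replicate block and 0.0386 by DESeq2. Its log2 fold change was 1.53 and 3.02 without STAT3ko replicate 1 and 2, and 1.56 and 2.45 without STAT3ko PD-1ko replicate 2 and 1. Against WT, the STAT3ko level gave −1.87 ± 0.60 in CD4+ and −2.14 ± 0.59 in CD8+ cells (adjusted p = 0.301 and 0.296). Without 1 library these ranged from −2.81 to −1.32 and from −3.45 to −1.45, with the extremes in both subsets in the fits that left out a STAT3ko library. The STAT3ko PD-1ko level gave 0.21 ± 0.51 and 1.12 ± 0.47 (adjusted p = 0.828 and 0.140). The CD8+ value passed by limma on log2(RPKM + 1) (adjusted p = 0.0310), and the CD4+ value changed sign when a library was left out, to −0.31 without STAT3ko PD-1ko replicate 2 and −0.09 without WT replicate 1.

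**Figure D2:**
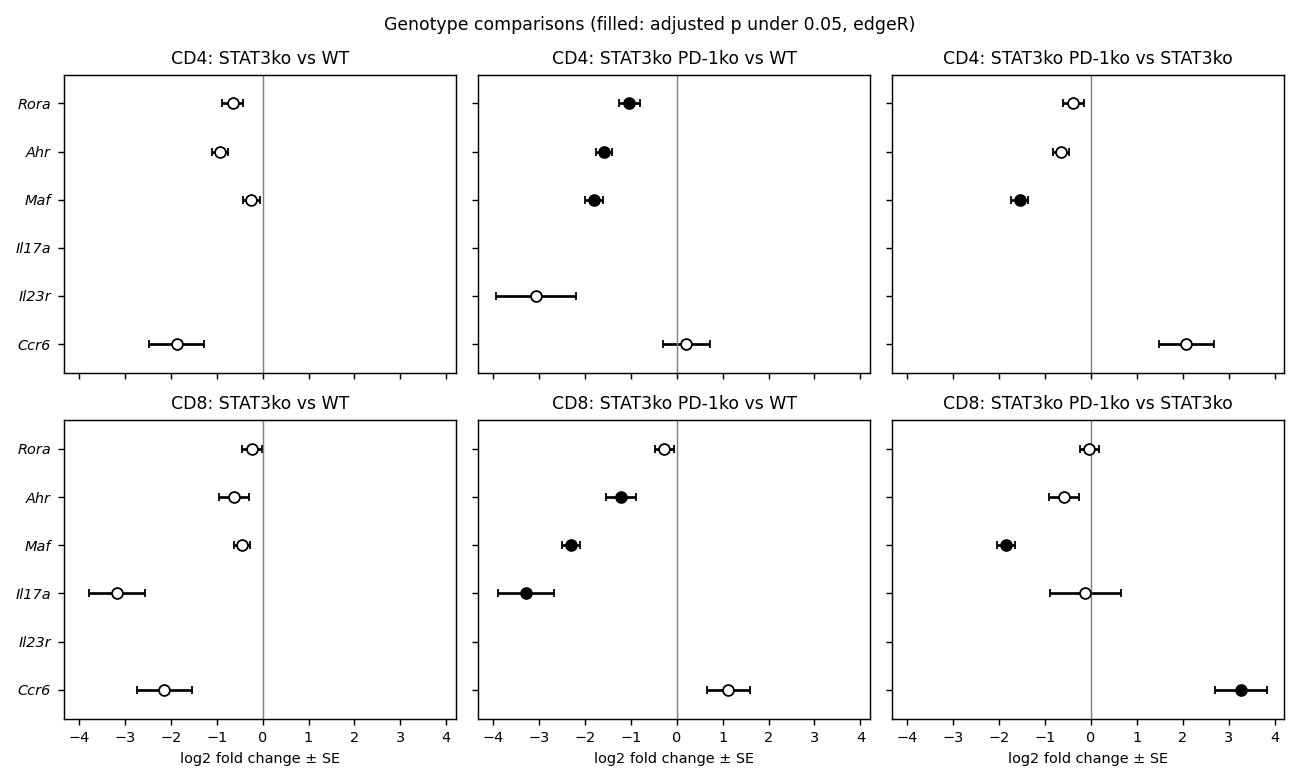
Log2 fold change with its standard error for the 6 genes tested, in 3 genotype comparisons for CD4+ cells (top) and CD8+ cells (bottom), with filled points for an edgeR adjusted p under 0.05. Maf is filled to the left of 0 in all 4 panels that involve STAT3ko PD-1ko cells, and Ccr6 is filled to the right only in the bottom right panel, where it reaches 3.26. Folds that involve a group of 0 to 3 counts are not drawn. This leaves out Il17a in CD4+ cells and Il23r except in STAT3ko PD-1ko against WT CD4+ cells. Il17a in CD8+ cells and Il23r in CD4+ cells passed the filter through the WT libraries alone, so their points against WT count for little as tests.

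The CD4+ and CD8+ cells of a genotype were compared in 1 fit of all 12 libraries, in which 7 members could be tested. Maf and Ahr were lower in CD8+ than in CD4+ cells in all 3 genotypes by edgeR without a block, a fit that called no other member. These 2 of 7 stood beside 5.59% of all genes lower and 4.91% higher in WT CD8+ cells (10.5% called in all), 4.82% lower and 4.81% higher in STAT3ko cells (9.62% in all) and 2.50% lower and 1.65% higher in STAT3ko PD-1ko cells (4.14% in all). The log2 fold change of Maf was −3.07 ± 0.21, −3.26 ± 0.21 and −3.56 ± 0.22 in the 3 genotypes, and that of Ahr −1.77 ± 0.30, −1.46 ± 0.30 and −1.40 ± 0.30. Without 1 library the Ahr values ranged from −2.37 to −1.36, −1.76 to −1.22 and −1.56 to −1.21. For Maf the edgeR adjusted p stayed at or below 0.000614 in every fit without 1 library.

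The Ahr difference between subsets had an adjusted p of 0.00455 in WT, 0.0138 in STAT3ko and 0.0307 in STAT3ko PD-1ko cells. In STAT3ko cells it was 0.0509 without CD4+ replicate 1 and 0.0952 without CD8+ replicate 2. In STAT3ko PD-1ko cells it was between 0.0664 and 0.171 when any of the 4 libraries compared was left out: 0.171 and 0.0664 without CD4+ replicate 1 and 2, and 0.156 and 0.165 without CD8+ replicate 1 and 2. Rora did not pass in any genotype (−0.56 ± 0.25 in WT, −0.13 ± 0.25 in STAT3ko and 0.22 ± 0.25 in STAT3ko PD-1ko cells, adjusted p = 0.218, 0.835 and 0.803). With the pool of recipients as a block, since the CD4+ and CD8+ libraries of a pool deviated together, the WT value for Rora passed (−0.56, adjusted p = 0.00193).

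Il17a did not differ detectably between WT CD8+ and CD4+ cells (log2 fold change 0.02 ± 0.52, adjusted p = 0.992). In STAT3ko cells the 10 counts of the CD8+ libraries stood against 0 in the CD4+ libraries (edgeR adjusted p = 0.0928, and 0.0343 with the pool as a block, and 0.0480 by DESeq2). In STAT3ko PD-1ko cells the 9 counts of the CD8+ libraries stood against 2 in 1 CD4+ library (adjusted p = 0.459), and the fitted log2 fold change, from 1.11 to 5.21 without 1 library, cannot be read at that depth. Ccr6 in the 3 genotypes (−0.51 ± 0.53, −0.77 ± 0.73 and 0.41 ± 0.49) did not pass either.

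**Figure D3:**
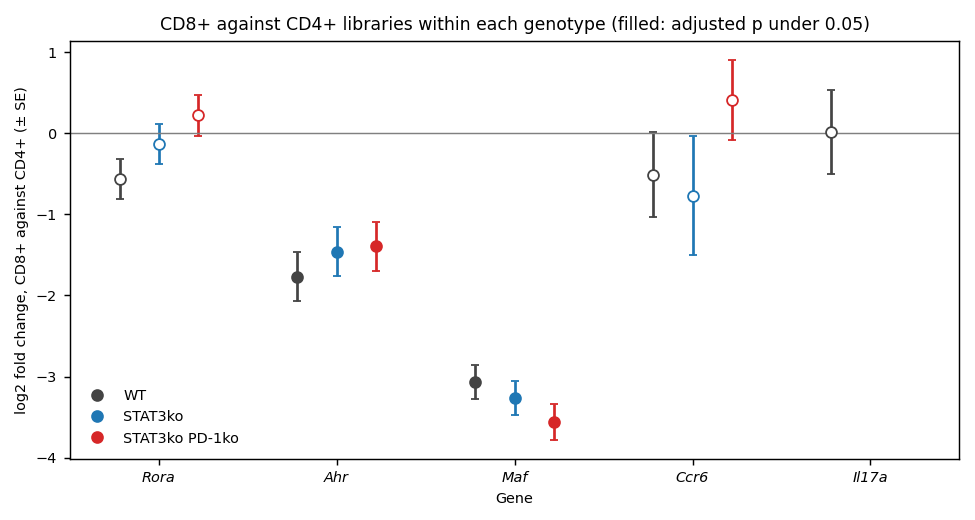
Log2 fold change of CD8+ against CD4+ libraries with its standard error for 5 of the members in WT, STAT3ko and STAT3ko PD-1ko cells. Filled points mark an edgeR adjusted p under 0.05 in the fit without a block. Maf lies near −3 and Ahr near −1.5 in every genotype, all with filled points, while Rora, Ccr6 and Il17a have open points; Il17a is drawn for WT cells only, because its CD4+ libraries held 0 counts in STAT3ko and 2 in STAT3ko PD-1ko cells.

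A test of whether a genotype difference differed between CD8+ and CD4+ cells called 0 of the 7 members for STAT3ko against WT, where 0% of all genes passed. It also called 0 for STAT3ko PD-1ko against WT (background 0.00811%) and 0 for STAT3ko PD-1ko against STAT3ko (background 0%). At an unadjusted p under 0.05 there were 2, 0 and 0 members (background 1.85%, 4.43% and 3.59%), and DESeq2 called 0 in each (background 0.0405%, 0.608% and 0.197%). The 2 in the first were Il17a and Il23r (0.0170 and 0.0397, adjusted p = 1.00 for both). Their CD4+ STAT3ko groups held 0 and 3 counts and both passed the CD4+ filter through the WT libraries alone, so that count is no support. The lowest unadjusted p in the second was that of Rora (0.0501, adjusted p = 1.00), whose CD8+ log2 fold change exceeded that in CD4+ cells by 0.78 ± 0.35. With the pool as a block this difference for Rora was 0.78 with an adjusted p of 0.0307.

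Other genes of the pathway, from Il6ra to Ltb4r1, were taken from a list of 24. Of these, 23 could be tested in each subset, all except the CCR6 ligand Ccl20. The list was chosen with earlier results of these data known, so its counts and medians are no independent test. In CD4+ cells 1 was lower in STAT3ko than in WT cells (background 0.184% lower), 7 in STAT3ko PD-1ko than in WT cells (5.65% lower) and 1 in STAT3ko PD-1ko than in STAT3ko cells (5.03% lower), and edgeR called none higher. Their median log2 fold changes were −0.29, −0.64 and −0.47, beside 0.01, −0.01 and −0.01 over all genes tested. In CD8+ cells 1 was lower in STAT3ko than in WT cells (background 0.0417% lower), 5 were lower in STAT3ko PD-1ko than in WT cells (8.21% lower), and 2 were higher and 3 lower in STAT3ko PD-1ko than in STAT3ko cells (8.76% higher and 8.05% lower). The 1 of 23 in the last CD4+ comparison and the 2 of 23 higher in CD8+ cells stood near those backgrounds. The 1 CD8+ call against WT in STAT3ko cells was Il1r1, which passed the filter in that subset through the WT libraries alone and so had to differ, and that count is no support. Il1r1 was also 1 of the 5 lower in STAT3ko PD-1ko than in WT CD8+ cells, and the other 4 were Il21r, Tgfbr2, Sgk1 and Runx1. The medians were −0.08, −0.65 and −0.45, beside −0.01, 0.00 and 0.00.

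Il1r1, the receptor through which IL-1 promotes type 17 cells, was lower than in WT cells in both deleted genotypes of both subsets, in CD8+ cells with the limit just given. It was at 25.3 and 39.2 CPM in WT, 0.706 and 1.24 in STAT3ko and 0.692 and 0.992 in STAT3ko PD-1ko CD4+ cells. In CD8+ cells it was at 3.56 and 7.51 in WT, 0.0863 and 0.123 in STAT3ko, and 0.133 and 0.163 in STAT3ko PD-1ko libraries. Every WT library thus exceeded every deleted library of its subset. The log2 fold changes against WT were −5.03 ± 0.39 and −5.22 ± 0.39 in CD4+ cells (edgeR adjusted p = 0.00671 and 0.00134). In CD8+ cells the 2 libraries of a group held 268 counts in WT, 5 in STAT3ko and 7 in STAT3ko PD-1ko cells. The deleted groups were thus at 1.86% (95% exact interval 0.600% to 4.40%) and 2.63% (1.05% to 5.50%) of the WT level by counting error, with an edgeR adjusted p of 0.0454 and 0.00413.

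With only the 4 libraries compared, the Il1r1 call in STAT3ko against WT cells was lost in both subsets. Its edgeR adjusted p was then 0.0685 in CD4+ and 0.254 in CD8+ cells. In CD8+ cells the call was also lost by limma on log2(RPKM + 1) (adjusted p = 0.197) and when any library other than WT replicate 1 was left out. The adjusted p was 0.250 and 0.241 without STAT3ko PD-1ko replicate 1 and 2, 0.0983 and 0.149 without STAT3ko replicate 1 and 2, and 0.106 without WT replicate 2. In CD4+ cells the STAT3ko against WT call had an adjusted p of 0.0658 and 0.0600 without STAT3ko PD-1ko replicate 1 and 2. In CD8+ STAT3ko PD-1ko against WT cells it had one of 0.0585 without STAT3ko PD-1ko replicate 2.

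The other genes of the list that were called in STAT3ko PD-1ko against WT cells were lower by less. In CD4+ cells they were the receptors Il21r (−0.67 ± 0.17) and Tgfbr2 (−0.71 ± 0.15), the leukotriene B4 receptor Ltb4r1 (−2.16 ± 0.36), the kinase Sgk1 (−0.82 ± 0.20) and the membrane proteins Tmem176a (−1.70 ± 0.29) and Tmem176b (−1.33 ± 0.28). In CD8+ cells they were Il21r (−0.80 ± 0.17), Tgfbr2 (−0.78 ± 0.10), Sgk1 (−0.87 ± 0.22) and the transcription factor Runx1 (−0.50 ± 0.14). Against STAT3ko cells, Tgfbr2 was lower in STAT3ko PD-1ko cells of both subsets (−0.72 ± 0.15 and −0.72 ± 0.10), and Runx1 (−0.77 ± 0.14) and Sgk1 (−0.79 ± 0.22) were lower in CD8+ cells. The cytokine genes Il21 (1.70 ± 0.36) and Csf2 (2.02 ± 0.53), which encodes GM-CSF, were higher in that comparison. The Csf2 value was 1.42 without STAT3ko PD-1ko replicate 1 (edgeR adjusted p = 0.180), 1.42 without STAT3ko replicate 2 (0.103), 2.42 without STAT3ko PD-1ko replicate 2 (0.114) and 3.03 without STAT3ko replicate 1, and its adjusted p was 0.0811 in 1 fit of all 12 libraries. Of the 20 calls made on genes of this list, 1 held in every fit without 1 library, that of Il1r1 in CD4+ STAT3ko PD-1ko against WT cells. The other 19 were lost in at least 1 such fit, with an adjusted p of up to 0.250.

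Of 6 genes listed as AHR targets, only Tiparp and Nqo1 could be tested in either subset, and 0 of these 2 was called in any of the 6 genotype comparisons, with 0 at an unadjusted p under 0.05 and 0 by DESeq2. Since at most 17.2% of all genes were called by edgeR in such a comparison, 34.4% had an unadjusted p under 0.05 and 23.9% were called by DESeq2, nothing can be read from 0 of 2. Cyp1a1, the classical target, had 0 to 2 counts in each library, and Ahrr, the AHR repressor, had 0 to 3.

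Markers of other cell types were low in these sorts. The 8 hepatocyte genes summed to 1.41 to 5.06 CPM, led by Trf, the 4 neutrophil genes to at most 0.974, the 5 dendritic cell genes to 0.123 to 1.71 and the 4 endothelial and stellate genes to 0.235 to 1.64. The 3 B cell genes summed to 1.59 to 14.6 CPM, nearly all of it Cd79b, and the 2 others were under 1 CPM everywhere. The 8 macrophage and monocyte genes summed to 18.3 to 102, led by Itgam at 6.49 to 69.9 CPM, which activated T cells also express, or in 3 STAT3ko PD-1ko libraries by Cd68, while Csf1r reached at most 1.31. The 6 T cell genes summed to 4001 to 5323 CPM.

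Some of these low markers moved with genotype as Maf did in CD8+ cells. Cd79b was at 14.5 and 10.6 CPM in WT, 12.5 and 13.7 in STAT3ko and 5.92 and 5.10 in STAT3ko PD-1ko CD8+ libraries, and edgeR called it lower against both (log2 fold change −1.18 ± 0.22 and −1.23 ± 0.22, adjusted p = 0.0149 and 0.0143). The B cell genes Ms4a1 and Cd79a are the 2 under 1 CPM. Cd68 was also lower there (−0.71 ± 0.13 and −0.63 ± 0.13, adjusted p = 0.0154 and 0.0232). Trf went the other way against STAT3ko cells (1.73 ± 0.48, adjusted p = 0.0486), from 0.647 and 0.695 to 1.72 and 2.69 CPM. Their part in the values of Maf was not tested.

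Some markers of the T cells themselves were, like Maf, lower in STAT3ko PD-1ko than in WT cells by edgeR. They were Cd4 in CD4+ cells and Cd8a, Cd8b1 and 3 of 6 T cell genes in CD8+ cells. The 2 CD4 genes, Cd4 and Zbtb7b, the factor of the CD4 lineage, summed to 2009 and 2088 CPM in WT, 1889 and 2145 in STAT3ko and 1473 and 1318 in STAT3ko PD-1ko CD4+ libraries. Cd4 was lower in STAT3ko PD-1ko than in WT CD4+ cells (log2 fold change −0.52 ± 0.13, edgeR adjusted p = 0.0375), and Zbtb7b was at −0.70 ± 0.31 (adjusted p = 0.186). Against STAT3ko cells edgeR called neither (adjusted p = 0.0554 and 0.0852) and DESeq2 called both lower (0.0161 and 0.0162).

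The 3 CD8 genes, Cd8a, Cd8b1 and Runx3, summed to 2465 and 2629 CPM in WT, 2334 and 2624 in STAT3ko and 1403 and 1436 in STAT3ko PD-1ko CD8+ libraries. Cd8a and Cd8b1, the chains of the CD8 coreceptor, were lower in STAT3ko PD-1ko than in WT cells (log2 fold change −1.09 ± 0.12 and −0.87 ± 0.11, edgeR adjusted p = 0.00414 and 0.00531), and Runx3 was at 0.13 ± 0.10. Of the 6 T cell genes, 3 were lower in that comparison beside 8.21% of all genes, Cd3d, Cd247 and Lck (−0.67, −0.64 and −0.46). The 6 summed to 5323 and 5264 CPM in WT, 4843 and 5098 in STAT3ko and 4001 and 4072 in STAT3ko PD-1ko CD8+ libraries. Against STAT3ko CD8+ cells edgeR called 2 of the 3 CD8 genes and 2 of the 6 T cell genes lower, beside 8.05% of all genes. DESeq2 called Cd8a, Cd8b1 (log2 fold change −0.89 and −0.96), Cd3d, Cd247 and Lck lower there (background 23.9%). In CD4+ STAT3ko PD-1ko against WT cells edgeR called 0 of the 6 beside 12.9% of all genes, 3 had an unadjusted p under 0.05 (28.7% of all genes) and DESeq2 called 1, Cd247 (−0.59, adjusted p = 0.0136, 18.1% of all genes). Their sums were 5299 and 4896 CPM in WT, 4844 and 4679 in STAT3ko and 4444 and 4326 in STAT3ko PD-1ko libraries. Their part in the values of the members was not tested.

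Of 6 genes listed for innate-like type 3 lymphocytes, 2 could be tested in CD4+ cells. EdgeR called 1 of them lower than WT in STAT3ko and in STAT3ko PD-1ko cells (background 0.184% and 5.65% lower). DESeq2 called Cd163l1 lower in both (background 2.27% and 18.1%). The 6 genes summed to 19.4 and 23.1 CPM in WT, 4.57 and 4.76 in STAT3ko and 4.46 and 4.41 in STAT3ko PD-1ko CD4+ libraries. In CD8+ libraries they summed to 3.74 and 7.39 in WT, 5.31 and 4.46 in STAT3ko, and 8.18 and 10.3 in STAT3ko PD-1ko cells. Most of the WT CD4+ sum was Cd163l1 (16.3 and 20.2 CPM), the CD8+ STAT3ko PD-1ko sums were mostly Kit (6.45 and 8.37 CPM), and 4 of the 6 genes were under 1 CPM in every library. In these CD8+ cells edgeR called 1 of 2 genes tested higher than in WT and in STAT3ko cells (background 9.01% and 8.76% higher). DESeq2 called Kit higher in both (log2 fold change 2.75 and 1.64) and Cd163l1 lower than in WT cells (−1.58). The part of such cells in the values of Il17a, Il1r1 and Ccr6 was not tested. Itgam also moved with Maf, at 39.7 to 69.9 CPM in the WT and STAT3ko libraries and 6.49 to 11.99 in the STAT3ko PD-1ko libraries of both subsets, and its part was not tested.

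Libraries of replicate 1 and 2 differed in the same direction across groups for some genes. The log2 CPM of Nfkbiz, Irf4 and Il10, named after their values were seen, was lower in replicate 2 in all 6 groups, by a mean of 1.63, 1.23 and 1.79. Among the members, Ahr was lower in replicate 2 in all 6 groups, by a mean of 0.40, Maf and Il17a in 5 of 6, Rora in 4 and Il22 in 3. Il23r and Ccr6 went the other way, lower in replicate 2 in 1 of 6 groups each, with a mean difference of 0.75 and 0.28.

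The genes whose profile over the 12 libraries lay closest to a member were found among 8608 abundant genes, by the root mean square difference of centred log2 CPM. For Rora these were Armcx5, Nfkbib and Samd8, at 0.191, 0.216 and 0.219, against a range of 1.41 for Rora itself. For Ahr they were Cish, Irf2bp2 and Plk3, at 0.346, 0.347 and 0.357 against a range of 3.16. For Maf they were St8sia1, Tnfsf8 and Slfn5, at 0.453, 0.521 and 0.634 against a range of 5.64. Among the scarce members the nearest gene was Csnk1e for Il22 at 0.494, Tox2 for Il23r at 0.584, Plxnd1 for Ccr6 at 0.592 and Chst11 for Il17a at 0.800. Every gene of this search shares the same 12 libraries and their depth.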

How the data were processed

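Duplicate pools of sorted liver T cells were sequenced as single-end reads, and the authors aligned them to mm10 with STAR and counted RefSeq genes with HTSeq-count. The authors deposited raw counts per gene and RPKM values for the same 12 libraries. The depth was 21676100 to 24551500 counts per library, which limits genes of a few counts. From the deposited counts, genes were filtered with filterByExpr (minimum count of 10, minimum total of 15), scaled by TMM and tested with the quasi-likelihood test of edgeR 4.0.16 in R 4.3.3, with Benjamini-Hochberg adjustment over 11959 genes in CD4+, 12002 in CD8+ and 12334 in all 12 libraries, called at an adjusted p under 0.05. The CD4+ and CD8+ libraries were fitted apart for genotype comparisons. DESeq2 1.42.0, limma 3.58.1 on the log2 of the deposited RPKM values plus 1, other filters, other sample sets, the replicate number or recipient pool as a block and leaving out each library were the alternatives. Scripts were tested on simulated data. Figures used Python 3.11.15 and matplotlib 3.10.9.

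Deviations of same-numbered libraries from their group means correlated in every pair of CD4+ groups (r of 0.20 to 0.64) and in every CD4+ and CD8+ pair of a genotype (0.59 to 0.65), but not in every CD8+ pair (0.06 to 0.66). The numbers were therefore taken to pair the CD4+ groups, and the pools to pair the subsets. The labels' growth and treatment protocols describe a cultured mesenchymal line and were not used, and the strand setting of the counting is not given in the sources used here. The 8 genes and the gene lists were chosen with earlier results of these data known. Genes named in the text are the 8 members, list genes that passed the test or have a role described, checks of the labels, and the 3 genes nearest in profile to a member. The 26 genes whose symbols read as dates kept those names. Promoter sequences are from RefSeq. Some listed genes are not reported here.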

Additional observations from a re-analysis of the deposited data

How the results depend on the processing

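Over the genotype and subset comparisons, 571 values of members under an alternative kept their direction and side of the threshold, 30 gained a call, 23 lost one and 14 changed sign. The sign changed for Rora in CD8+ STAT3ko PD-1ko against STAT3ko cells by limma on log2(RPKM + 1), where it was 0.00198, and for Il17a in WT CD8+ against CD4+ cells with the replicate block, where it was −0.011. Without 1 library, log2 fold changes that crossed 0 ranged from −0.31 to 0.58 for Ccr6 in CD4+ STAT3ko PD-1ko against WT cells, from −0.76 to 0.62 for Il17a and −0.33 to 0.32 for Rora in CD8+ STAT3ko PD-1ko against STAT3ko cells, and from −0.59 to 0.056 for Rora in CD8+ STAT3ko against WT cells. Between CD8+ and CD4+ cells they ranged from −2.08 to 0.16 for Ccr6 and −0.50 to 0.17 for Rora in STAT3ko cells, and from −0.49 to 0.39 for Il17a in WT cells. None of these passed the test in the reported fit, and the cause was not tested.

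The number of genes called moved more. For CD4+ STAT3ko against WT cells the reported 40 became 164 in 1 fit of all 12 libraries, 165 with all genes of at least 1 count, 271 by DESeq2, 1 with only the 4 libraries compared and 303 with the replicate block. For CD4+ STAT3ko PD-1ko against WT cells 1538 became 2462 in the 12-library fit and 3104 with the block, and against STAT3ko cells 1324 became 2299, 3105 and, by DESeq2, 2100. For CD8+ STAT3ko against WT cells 7 became 20 in the 12-library fit, 66 with all genes of at least 1 count, 1 with at least 10 counts in every library, 218 by DESeq2 and 0 with only the 4 libraries. Between subsets 1294, 1187 and 511 calls in WT, STAT3ko and STAT3ko PD-1ko cells became 2014, 1909 and 939 with the replicate block and 2991, 3077 and 1774 with the pool of recipients as a block, which was added after seeing the data. The interaction for STAT3ko against WT had 0 calls and 5 by DESeq2. That for STAT3ko PD-1ko against WT had 1, then 50 with all genes of at least 1 count, 75 by DESeq2, 28 with the replicate block and 84 with the pool as a block. That for STAT3ko PD-1ko against STAT3ko had 0, then 9, 21 by DESeq2 and 22 with the pool as a block.

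Without 1 library the counts ranged from 1 to 49, 62 to 1947 and 0 to 1212 in CD4+ cells for STAT3ko against WT, STAT3ko PD-1ko against WT and STAT3ko PD-1ko against STAT3ko. They ranged from 0 to 2, 111 to 1908 and 2 to 1878 in CD8+ cells, from 611 to 1313, 428 to 1135 and 163 to 507 between subsets in WT, STAT3ko and STAT3ko PD-1ko cells, and from 1 to 9 for the interaction of STAT3ko PD-1ko against WT. Where a group was left with 1 library, that library was assumed to vary like the other groups. The lowest counts for the STAT3ko PD-1ko comparisons came without replicate 2 of that genotype. In CD8+ cells, where 1 pair of groups correlated at 0.0587 and the numbers were not taken to pair the libraries, the replicate block moved the counts from 7, 2066 and 2017 to 9, 2965 and 2932. Beside the CD4+ and subset results given with their blocked values, the replicate and pool blocks changed no other call of a member in those comparisons except that Il17a in STAT3ko CD8+ against CD4+ cells also passed with the replicate block (adjusted p = 0.0247). Genes of a few counts, Il17f and Il22 above all, are limited by depth.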

Other observations

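Genes of other helper lineages, listed with earlier results of these data known, were measured in the same libraries. In CD4+ STAT3ko PD-1ko against WT cells edgeR called lower 2 of 3 genes listed for regulatory T cells, 2 of 2 for follicular helper, 1 of 3 tested for Th2 and 0 of 4 for Th1 cells, beside 5.65% of all genes, with median log2 fold changes of −1.11, −2.68, −1.09 and −0.19. Foxp3, the defining factor of regulatory T cells, was at 20.95 and 30.7 CPM in WT, 16.3 and 25.1 in STAT3ko and 3.37 and 3.41 in STAT3ko PD-1ko CD4+ cells. The STAT3ko PD-1ko libraries lay below the other 4, by a log2 fold change of −2.91 ± 0.31 against WT (edgeR adjusted p = 0.00395, and 0.0562 and 0.0603 without STAT3ko PD-1ko replicate 1 and 2). Ikzf2, which encodes Helios, was lower in the same comparison (−1.11 ± 0.22, adjusted p = 0.0185, and 0.106 without STAT3ko PD-1ko replicate 2 and 0.0604 without WT replicate 1). Against STAT3ko CD4+ cells both were also lower in STAT3ko PD-1ko cells, Foxp3 by −2.59 ± 0.31 (adjusted p = 0.00728, and 0.0580 and 0.102 without STAT3ko PD-1ko replicate 1 and 2) and Ikzf2 by −1.69 ± 0.22 (adjusted p = 0.00865, and 0.0860 without STAT3ko PD-1ko replicate 2). In CD8+ cells Foxp3 was lower in STAT3ko PD-1ko than in STAT3ko cells (−1.52 ± 0.33, adjusted p = 0.0241), a call lost without STAT3ko PD-1ko replicate 1 or 2 or STAT3ko replicate 2 (0.107, 0.131 and 0.0888). It was lower than in WT cells too (−1.19 ± 0.32, adjusted p = 0.0458), a call lost without STAT3ko PD-1ko replicate 1 or 2 or WT replicate 1 (0.189, 0.156 and 0.155). In that CD8+ comparison with WT edgeR did not call Il2ra, and DESeq2 called it higher (log2 fold change 0.41, adjusted p = 0.0293). By edgeR Il2ra was higher in STAT3ko PD-1ko than in STAT3ko cells of both subsets (0.83 ± 0.17 and 0.71 ± 0.13, adjusted p = 0.0263 and 0.0143). The CD4+ call was lost without STAT3ko PD-1ko replicate 1 or 2 or STAT3ko replicate 1 (log2 fold change 0.66, 0.98 and 0.72). The CD8+ call was lost without STAT3ko PD-1ko replicate 1 or 2 or STAT3ko replicate 2 (log2 fold change 0.55, 0.84 and 0.70).

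Both follicular helper genes listed, Bcl6 and Cxcr5, were lower in STAT3ko PD-1ko than in WT CD4+ cells, by −2.20 ± 0.33 and −3.16 ± 0.28 (edgeR adjusted p = 0.00839 and 0.00250). The Bcl6 call was lost without STAT3ko PD-1ko replicate 1 or 2 (adjusted p = 0.0813 and 0.0882). Cxcr5 was also lower in STAT3ko than in WT CD4+ cells (−1.90 ± 0.26, adjusted p = 0.0413), a call lost when any 1 of the 6 CD4+ libraries was left out, with an adjusted p of 0.0638 to 0.188. Against STAT3ko CD4+ cells, Bcl6 (−1.33 ± 0.32, adjusted p = 0.0414) and Cxcr5 (−1.26 ± 0.29, adjusted p = 0.0343) were lower in STAT3ko PD-1ko cells. The Bcl6 call was lost without STAT3ko PD-1ko replicate 1 or 2 or STAT3ko replicate 2 (0.161, 0.230 and 0.101), and the Cxcr5 call without any 1 of the 4 libraries compared (0.0629 to 0.221). In CD8+ cells Bcl6 was lower in STAT3ko PD-1ko than in WT cells (−2.16 ± 0.39, adjusted p = 0.0144), a call lost without STAT3ko PD-1ko replicate 1 or 2 or WT replicate 2 (0.0534, 0.0546 and 0.0532). Of the 4 Th1 genes listed, 0 were called by edgeR in the 3 CD4+ genotype comparisons, with 0, 0 and 1 at an unadjusted p under 0.05 (10.5%, 28.7% and 29.4% of all genes) and 0 by DESeq2. In CD8+ cells Cxcr3 was lower in STAT3ko PD-1ko than in WT cells (−0.92 ± 0.13, adjusted p = 0.00679, and 0.0590 without STAT3ko PD-1ko replicate 2). Il12rb2 was higher (0.45 ± 0.11, adjusted p = 0.0342), a call lost when any 1 of the 6 CD8+ libraries was left out, with an adjusted p of 0.0622 to 0.193. Of the Th2 genes, Gata3 was lower in STAT3ko PD-1ko than in WT CD4+ cells (−0.58 ± 0.14, adjusted p = 0.0391, but 0.115 and 0.235 without STAT3ko PD-1ko replicate 1 and 2 and 0.151 and 0.122 without WT replicate 1 and 2), and edgeR called no other in a genotype comparison. DESeq2 also called Il13 lower in CD4+ STAT3ko than in WT cells (log2 fold change −2.75, adjusted p = 0.00853) and Gata3 lower in STAT3ko PD-1ko than in STAT3ko CD4+ cells (−0.55, adjusted p = 0.00794).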
